A study of Mus musculus with 40 samples.

Results

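The translation initiation factors are the proteins that bring the ribosome, the initiator tRNA and the messenger RNA together at a start codon. They were taken here as every gene whose symbol begins with Eif1 to Eif6 in the deposited tables, leaving out the eIF2 kinases Eif2ak1 to Eif2ak4 and the names ending in -ps. The rule took 54 of the 23284 genes of the pI-pC and antibody table, and the same 54 of the 23107 genes of each tamoxifen table. Of these, 4 (Eif2c1 to Eif2c4) are the Argonautes Ago1 to Ago4 under older symbols, which act in small RNA silencing and not in initiation, so they are counted apart from the 50 initiation factors. The filter on low counts was passed by 48 of the 50 factors. Eif2s3y and Eif4e1b never passed it, and Eif3j did not pass in the tamoxifen ETP libraries.

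The 40 libraries, in 12 groups, hold RNA of sorted C57BL/6 thymocytes at either of a pair of immature stages, the early T-cell precursor (ETP) and the later double-negative 3 cell (DN3). The first 4 groups were MxCre Zmiz1f/f mice (DeltaMxCre) and MxCre controls without the floxed allele, 3 libraries per group and stage, all injected with pI-pC 5 times at 40 mcg, once every 2 days, and sorted 8 weeks later. Mx-driven Cre acts in many cell types besides thymocytes. The next 4 groups were Rosa26CreERT2 Zmiz1f/f mice (DeltaTamCre) and Rosa26CreERT2 controls (TamCre), 4 libraries per group and stage, all given tamoxifen at 0.2 mg/g and sorted 43 to 44 hours later. Rosa26-driven Cre is active in nearly all cells. The last 4 groups were mice that received either AntiNRR, a blocking antibody to the regulatory region of the Notch1 receptor, or isotype control IgG, each at 10 mg/kg, 3 libraries per group and stage, sorted after 24 hours. Zmiz1 is a transcriptional co-activator of Notch1, and the series title names Myc as their joint target, so the comparisons ask whether the factors follow Zmiz1 loss or Notch1 block at each stage.

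Initiation begins when eIF2 carries the initiator tRNA to the small ribosomal subunit, where eIF1, eIF1A, eIF3 and eIF5 assemble with it. The eIF4F complex (the cap-binding protein eIF4E, the scaffold eIF4G and the helicase eIF4A) brings in the capped messenger RNA, and eIF5B joins the large subunit. Phosphorylation of eIF2 and sequestration of eIF4E by the 4E-binding proteins are the main brakes. Many genes of the translation machinery are known targets of the transcription factor Myc, and thymocytes leaving the DN3 stage grow and divide rapidly.

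Total counts ran from about 9456820 to 91659600 per library. Zmiz1 was lower in each of the deleted groups and passed the test in pI-pC DN3 (log2 −1.41 ± 0.13, adjusted p = 0.000144) and tamoxifen DN3 (log2 −0.66 ± 0.10, adjusted p = 0.0368, edgeR quasi-likelihood test). Kit and Cd44, markers of the earlier stage, were higher in all ETP groups than in the DN3 groups of the same treatment, and Ptcra, the pre-T-cell receptor chain, was higher in DN3. The tamoxifen stages came from different kits, so their levels compare only roughly. There the 10 DN3 markers summed to 9335 to 9791 CPM in TamCre DN3 and 3374 to 4658 CPM in TamCre ETP. Rag1, a marker of that list, overlapped, at 523 to 705 CPM in TamCre DN3 and 72.0 to 1281 CPM in TamCre ETP. Il2ra, which encodes CD25, ran from 573 to 4937 CPM over the group means of both stages, although the labels give a CD25-negative sort for both. Summed over 11 myeloid markers the level was 7.72 to 29.7 CPM in DN3 and 45.8 to 517 CPM in ETP libraries. Levels are library-size-normalised counts (CPM) scaled by TMM over all libraries of a table, and ± is the SD over libraries for a level and the standard error for a fitted log2 fold change. The threshold for a call was an adjusted p of 0.05 (Benjamini-Hochberg, over all genes tested). In bulk RNA, fewer cells of a type and less RNA per cell cannot be told apart.

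Per kilobase of exon, the 48 factors spanned more than 2 orders of magnitude. In IgG DN3 cells Eif4a1, the main eIF4A helicase, stood highest at 283 ± 19.5 CPM per kb (SD, n = 3), followed by Eif5a at 208 ± 14.9, the eIF4A cofactor Eif4b at 169 ± 11.2 and the eIF3 subunit Eif3h at 160.5 ± 23.3. Eif4b and Eif3h did not differ beyond their spread. Eif5a2, a paralogue of Eif5a, was lowest at 1.21 ± 0.18 CPM per kb, beside the 4E-binding protein Eif4ebp1 at 1.29 ± 0.25. In IgG ETP cells the same pair led, with Eif5a at 316 ± 43.8 and Eif4a1 at 315 ± 29.7 CPM per kb, which is within their spread, and Eif5a2 was again lowest at 0.875 CPM per kb. Lengths are those of the union of annotated exons, so isoform use can shift a level.

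The clearest difference was in DN3 cells after the Notch1 antibody. There 8 of the 52 members tested fell and none rose, against 2.96% of all genes tested that fell. The 8 were the helicase Eif4a1, the scaffold Eif4g1, the eIF3 core subunits Eif3a and Eif3b, the eIF2 alpha subunit Eif2s1, the scanning factor Eif1a, the eIF2 GTPase-activating factor Eif5, and Eif5a, which despite its name acts mainly in elongation and termination. Each lost between 21.9% and 37.1% of its level, and in each every AntiNRR library lay below every IgG library. DESeq2 also called 8 members lower and none higher, with 3.61% of all genes lower.

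**Figure D1:**
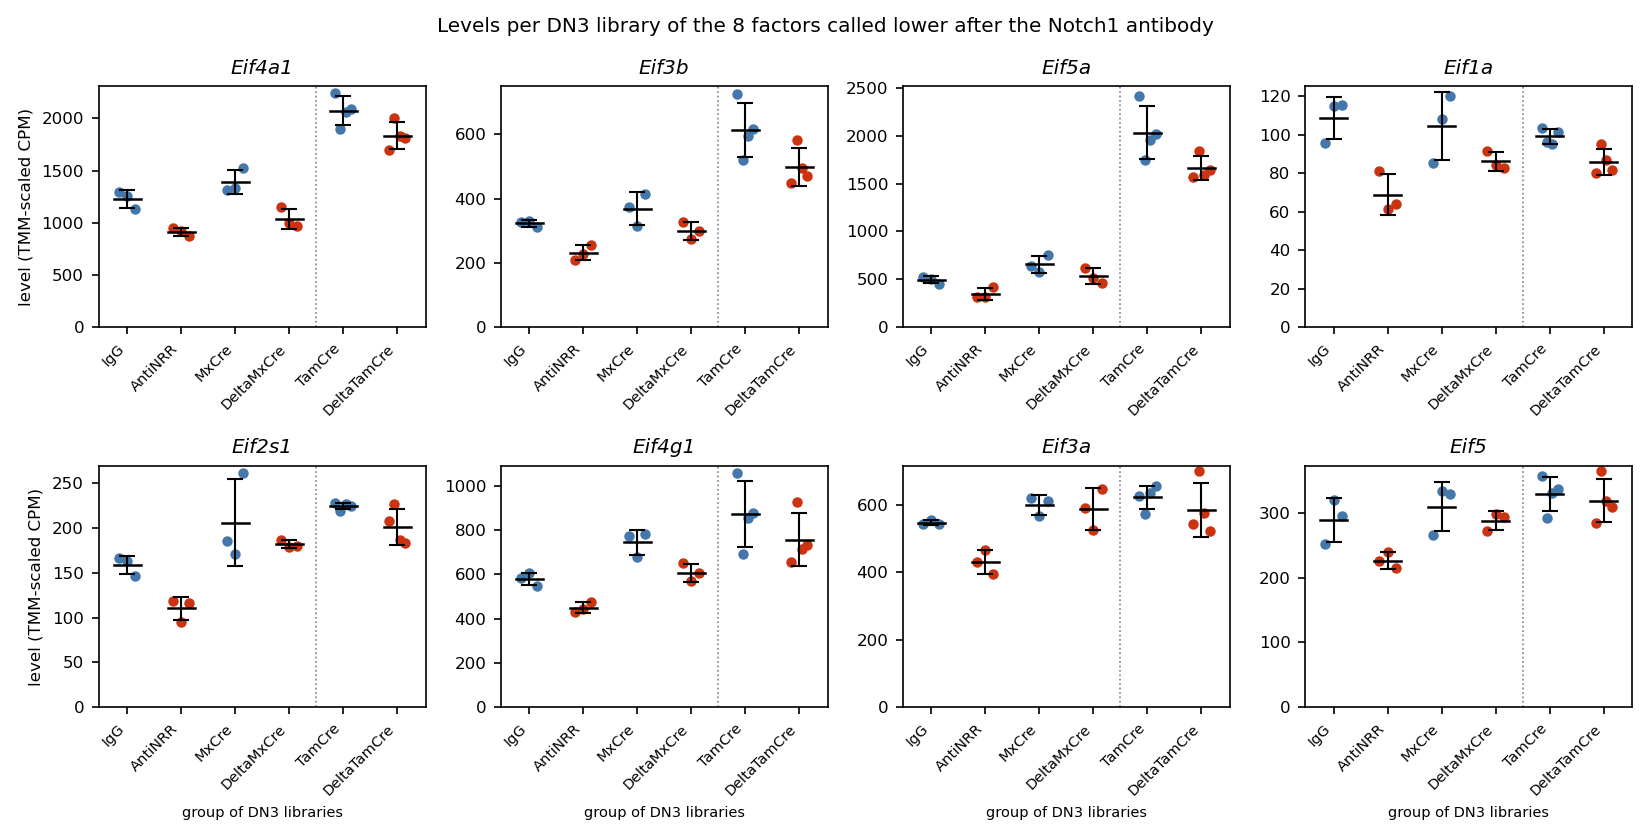
Each point is the level of 1 DN3 library (TMM-scaled CPM, axis from 0), blue for control and red for treated or deleted groups, with the group mean and SD as black lines. Left of the dotted line are the pI-pC and antibody libraries, right of it the tamoxifen libraries, which were made with another kit and are not comparable in level. In all 8 panels the 3 AntiNRR libraries lie below the 3 IgG libraries.

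Among the eIF4F genes, Eif4a1 stood at 1296, 1255 and 1134 CPM in the IgG DN3 libraries and at 954, 919 and 875 CPM in the AntiNRR DN3 libraries. The gap between the groups was wider than the range within either, with a log2 fold change of −0.44 ± 0.09 and an adjusted p of 0.00298 by edgeR's quasi-likelihood test. Eif4g1, which holds the cap-binding protein and the helicase together, was at 585, 605 and 548 CPM with IgG and at 429, 444 and 477 CPM with AntiNRR (log2 −0.38 ± 0.09, edgeR adjusted p = 0.0130). The cap-binding protein itself, Eif4e, was at 101 ± 1.79 CPM against 82.8 ± 1.87 CPM (SD, n = 3 each), log2 −0.30 ± 0.13, and did not pass the edgeR test (adjusted p = 0.219).

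Among the eIF3 genes, Eif3b was at 327, 331 and 311 CPM with IgG and at 209.9, 229 and 257 CPM with AntiNRR, a log2 fold change of −0.49 ± 0.10 (edgeR adjusted p = 0.00362). Eif3a, the largest subunit, was tightly grouped at 544, 555 and 543 CPM with IgG and lower at 430.3, 467 and 396 CPM with AntiNRR (log2 −0.36 ± 0.09, edgeR adjusted p = 0.0215). Of the 13 eIF3 genes, 12 had a fold change below 0 and only these 2 passed the test. Eif3f was the exception at log2 0.14.

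For the eIF2 and start-codon factors, Eif2s1 was at 166, 163 and 147 CPM with IgG and at 119, 95.2 and 117 CPM with AntiNRR (log2 −0.54 ± 0.12, edgeR adjusted p = 0.00735). This subunit carries the phosphorylation site of the Eif2ak kinases. Eif1a showed the largest fold among the 8, from 95.8, 115 and 115 CPM to 81.0, 61.6 and 63.9 CPM (log2 −0.67 ± 0.14, edgeR adjusted p = 0.00596). Eif5 was the weakest call, at 253, 319.9 and 295 CPM with IgG and 225, 239 and 214 CPM with AntiNRR (log2 −0.37 ± 0.11, edgeR adjusted p = 0.0402). Eif5a was at 525, 504 and 456 CPM with IgG, and at 314, 314 and 417 CPM with AntiNRR (log2 −0.52 ± 0.11, edgeR adjusted p = 0.00461). The third AntiNRR library lay well above the other two but still below the lowest IgG library.

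The calls on Eif4a1, Eif3b and Eif5a held when any 1 of the 6 libraries was left out. Leaving out AntiNRR DN3 2, IgG DN3 2 or IgG DN3 3 left 5 members called. The calls on the others were lost in at least 1 such fit, at adjusted p-values of up to 0.0531 for Eif1a, 0.0548 for Eif2s1, 0.0892 for Eif4g1, 0.0978 for Eif3a and 0.261 for Eif5. Several factors share sequence with annotated copies: 28.4% of the 50-base stretches of Eif4a1 transcripts also occur in transcripts of other genes, against 5.76% for Eif2s1, 3.77% for Eif5a, 2.62% for Eif1a, 2.47% for Eif5, 0.0250% for Eif4g1 and 0 for Eif3a and Eif3b. How reads with several matches were counted is not given in the sources used here, so the level of Eif4a1 is the least certain of the 8.

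The promoters of the called factors are shown because Myc itself fell in the same libraries, from 130.1 ± 35.0 to 66.2 ± 2.97 CPM (SD, n = 3 each; log2 −0.99 ± 0.16, edgeR adjusted p = 0.000253), and because Myc with its partner Max is known to bind the E-box CACGTG. RefSeq windows of 300 bases, from 250 before to 50 after a start site, were searched for 39 of the factors and for 7 of the 8 called. Eif1a, the remaining called factor, was left out of the search, so whether its promoter holds a motif was not tested. The palindrome CACGTG, which reads the same on both strands, occurred in a window of Eif4a1, Eif4g1, Eif3a and Eif5a, 4 of those 7, and not in those of Eif3b, Eif2s1 and Eif5. It occurred for 10 of the 39 factors (25.6%), against 8.09% of all genes with a window and 11.6% of the 8971 genes with a window that were tested in this comparison. TGGGAA, the core of the site bound by the Notch partner RBPJ, was found on either strand for 11 of the 39 factors (28.2%), against 26.6% of the tested genes, and for 3 of the 7 called (Eif3a, Eif5 and Eif5a). With 7 genes, neither count is set apart from its share among all genes by a test. Genes with several start sites have more than 1 window, Eif5a for example 6, and a match is a description of letters, not of binding. Whether Myc acts on these genes was not tested. The 250 bases before the start site are printed 5′ to 3′ on the gene's strand with CACGTG in capitals, in GRCm38.p6 coordinates. Eif4a1 spans chr11:69666936-69672423, Eif4g1 chr16:20668313-20692884 and Eif5a chr11:69916714-69921958 in GENCODE. The printed windows of Eif4g1 and Eif5a lie inside these spans, so they are upstream of 1 RefSeq start and not of the whole gene. Of the 6 Eif5a starts, 3 hold CACGTG in their windows. For Eif4a1 (minus strand, chr11:69672424-69672673) the motif begins at position −189, for Eif4g1 (plus strand, chr16:20672477-20672726) at −54, with another at 16 past the start, and for 1 of the Eif5a starts (minus strand, chr11:69921387-69921636) at −74. In Eif3a it lies at 23 past the start and is not printed.
Eif4a1: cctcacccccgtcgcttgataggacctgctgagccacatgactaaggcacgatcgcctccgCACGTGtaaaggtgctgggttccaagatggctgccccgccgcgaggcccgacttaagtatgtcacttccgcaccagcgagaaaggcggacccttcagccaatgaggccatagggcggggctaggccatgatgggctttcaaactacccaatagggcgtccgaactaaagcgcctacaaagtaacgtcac
Eif4g1: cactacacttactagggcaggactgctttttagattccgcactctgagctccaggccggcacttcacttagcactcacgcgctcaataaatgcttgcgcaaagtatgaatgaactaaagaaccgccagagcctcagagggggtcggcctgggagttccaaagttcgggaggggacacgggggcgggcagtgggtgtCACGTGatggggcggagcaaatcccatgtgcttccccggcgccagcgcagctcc
Eif5a: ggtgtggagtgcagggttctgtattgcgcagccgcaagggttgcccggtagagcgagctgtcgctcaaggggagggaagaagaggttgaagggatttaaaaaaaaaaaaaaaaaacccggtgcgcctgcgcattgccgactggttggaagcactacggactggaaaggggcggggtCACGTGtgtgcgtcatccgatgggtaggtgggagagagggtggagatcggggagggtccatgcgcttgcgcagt

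Over all 48 factors tested in DN3 cells after the antibody, 39 had a fold change below 0 and the median was −0.21, against 51.3% of all genes below 0 and a median of −0.01. Every AntiNRR library lay below every IgG library for 16 members, 30.8% of 52, against 11% of all genes tested. The 8 calls all fell among the 38 factors at 50 CPM or more (21.1%), and 6.25% of the 4335 genes at that level fell. The summed level of the factors was 8872 to 9244 CPM in the AntiNRR libraries and 10016 to 10889 CPM in the IgG libraries, with no overlap. By role, all 7 start-codon factors, 7 of 10 eIF2 and eIF2B genes, 8 of 10 cap-binding, scaffold and helicase genes and all 4 of Eif5a, Eif5a2, Eif6 and Eif4a3 were below 0, but only 1 of the 4 eIF4E inhibitors.

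Outside the rule, Abce1, the ATPase that splits ribosomes after termination, fell from 310.1 to 205 CPM (log2 −0.61 ± 0.10, edgeR adjusted p = 0.000366). It was the sole call among 24 regulators of initiation, where 2.96% of all genes tested fell. Of 12 elongation and termination factors tested, 4 fell and none rose: Eef1a1, which delivers aminoacyl-tRNA, the exchange factor subunits Eef1b2 and Eef1g, and Eef1e1, a part of the tRNA synthetase complex. Eef1e1 changed most at log2 −1.19 ± 0.32 (edgeR adjusted p = 0.0281). Several measures moved with the antibody in the same libraries. The ribosomal RNA precursor Rn45s took 4.77% to 6.80% of counts with AntiNRR and 2.75% to 3.74% with IgG, and the 11 stem and progenitor markers summed to 198 to 237 CPM against 140 to 158 CPM, of which Kit alone gave 179 and 98.9 CPM on average, while Cd34, Lmo2, Lyl1 and Gfi1b were at 0 in all 3 AntiNRR libraries. The 10 DN3 markers summed to 6909 to 7889 CPM against 12484 to 12730 CPM. That list includes the Notch pathway genes Notch3, Dtx1 and Hes1. A fall in its sum under Notch1 block therefore cannot be told apart from a change in cell make-up. The part of these measures in the factors' fall was not tested. Scaling without the Rn45s and Malat1 rows also gave 8 calls, but that changes only the scaling and does not test their part.

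**Figure D2:**
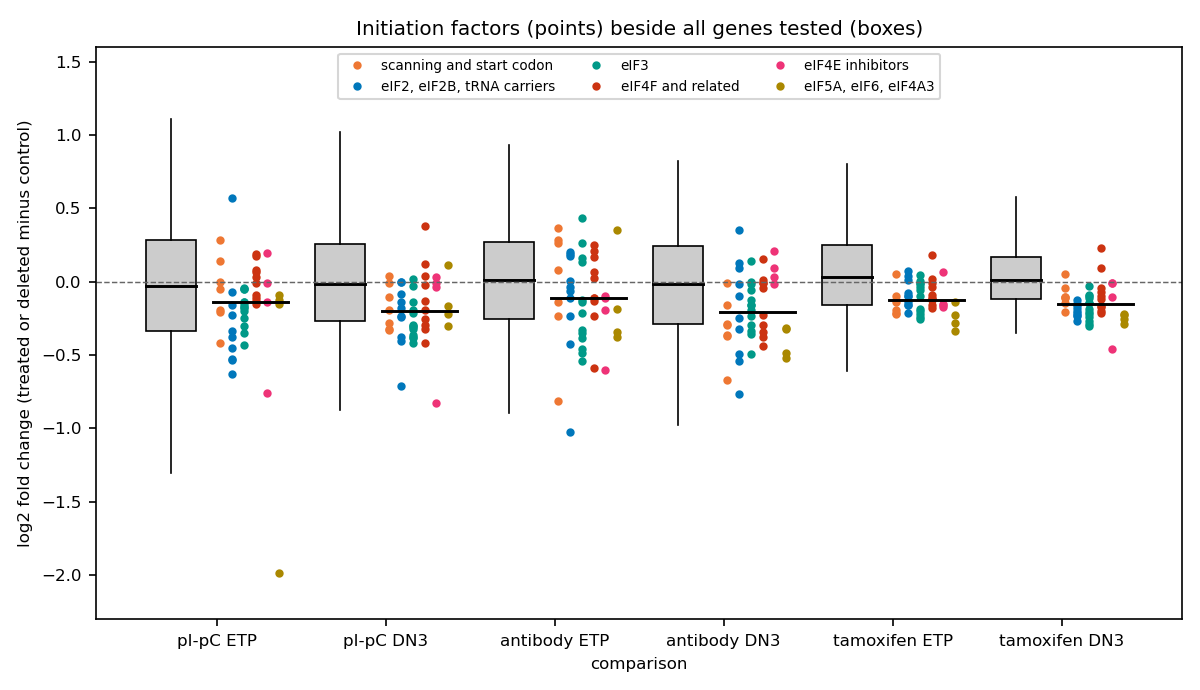
Points are the log2 fold changes of the 48 initiation factors (47 in tamoxifen ETP), coloured by role, with their median as a black line. The grey boxes beside them span the 25th to 75th percentile of all genes tested, with whiskers to the 5th and 95th and the median as a line. The factors' medians lie between −0.21 and −0.11 in the 6 comparisons, those of all genes between −0.03 and 0.03.

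In DN3 cells after Zmiz1 deletion with pI-pC, no initiation factor passed the test in either direction (12 had an unadjusted p under 0.05, all lower, as were 7.83% of all genes), where 0.986% of all genes rose and 0.458% fell. The single member called was the Argonaute Eif2c3 (Ago3), at 25.5, 37.0 and 27.6 CPM in MxCre and 48.3, 64.6 and 51.7 CPM in DeltaMxCre libraries (log2 0.87 ± 0.20, edgeR adjusted p = 0.0388). It was lost without any 1 of the 3 DeltaMxCre libraries or without MxCre DN3 1. The factor with the lowest p was Eif4a1, at 1311, 1333 and 1523 CPM in MxCre and 1150.3, 997 and 966 CPM in DeltaMxCre (log2 −0.42 ± 0.13, edgeR adjusted p = 0.124), where the groups did not overlap and DESeq2 gave an adjusted p of 0.0307. Eif3d, a cap-contacting eIF3 subunit, was at 255, 278 and 269.9 CPM against 205, 189 and 220.4 CPM (log2 −0.38 ± 0.12, edgeR adjusted p = 0.139).

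Of the 48 factors in the pI-pC DN3 comparison, 41 had a fold change below 0, with a median of −0.20 against −0.01 for all genes. For 10 of 52 members (19.2%) every DeltaMxCre library lay below every MxCre library, against 10.5% of all genes tested. Of the 13 eIF3 genes 12 were below 0, and Eif3j stood at log2 0.02. Myc was at 153 ± 66.1 CPM in MxCre and 85.3 ± 16.2 CPM in DeltaMxCre (log2 −0.84 ± 0.29, edgeR adjusted p = 0.211). Here Rn45s was lower in the deleted libraries, at 4.71% to 5.07% of counts against 6.76% to 8.82%, and Malat1 took 0.961% to 1.33% against 0.324% to 0.711%. Their part in these values was not tested.

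In tamoxifen DN3 cells no member passed the edgeR test, where 0.0827% of all genes did, although at an unadjusted p under 0.05 there were 19 lower and 2 higher members of 52 (8.26% of all genes were lower and 7.29% higher at that p). DESeq2 called 2 members lower, where it called 1.61% of all genes lower, both eIF3 subunits of the module around Eif3b. Eif3g was at 278, 235, 242 and 252 CPM in TamCre and 189, 201, 214 and 219 CPM in DeltaTamCre (log2 −0.29 ± 0.08; adjusted p = 0.144 by edgeR and 0.0266 by DESeq2). Eif3i was at 325, 283, 284 and 275 CPM against 243, 245, 233 and 249 CPM (log2 −0.27 ± 0.07; adjusted p = 0.150 by edgeR and 0.0264 by DESeq2). In both genes every deleted library lay below every control library. Eif2b4, a subunit of the eIF2 exchange factor, overlapped by a hair, with 56.1 CPM in 1 DeltaTamCre library and 56.0 CPM in 1 TamCre library (log2 −0.23 ± 0.07, edgeR adjusted p = 0.182).

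The tamoxifen DN3 shift was small and shared: 45 of 48 factors were below 0, all 13 eIF3 genes and all 10 eIF2, eIF2B and tRNA carrier genes among them, with a median of −0.15 against 0.01 for all genes. The 3 above 0 were Eif1b, Eif4a2 and the cap-binding relative Eif4e3. At 50 CPM or more, 41 of 44 factors were below 0 with a median of −0.15, and 57.3% of 4924 genes with a median of −0.03. Fold change and exon length had a Spearman rho of 0.16 across 11926 genes, and the part of length was not tested. For 10 of 52 members the groups did not overlap and the deleted group was lower, 19.2% against 5.81% of all genes tested. The summed level of the factors overlapped, at 14749.5 to 17192 CPM in DeltaTamCre and 15748 to 19054 CPM in TamCre. TamCre DN3 1 had the highest summed level of these 8 libraries, with Ppp1r15a, a stress-induced regulator of the eIF2 phosphatase, at 94.1 CPM against 17.2 to 18.6 CPM in the other controls, and Rn45s at 1.15% of counts against 0.494% to 0.649%. Without it the members' median was −0.13 in place of −0.15, and Eif3g and Eif3i stood at log2 −0.24 and −0.21. The 11 myeloid markers summed to 17.2 to 21.8 CPM in DeltaTamCre and 7.72 to 17.0 CPM in TamCre, with Elane at 0 in all 8 libraries. Cd8a overlapped between the groups, and the summed level tended to be lower where Cd8a was higher. TamCre DN3 2, lowest of the controls in summed level, had 26.6 CPM, against 7.05 to 8.44 CPM in the others. DeltaTamCre DN3 2, highest of the deleted libraries in summed level, had 9.08 CPM, against 16.5 to 45.04 CPM in the others. Double-positive markers (11 in the table) summed to 2430 to 2498 CPM in DeltaTamCre and 2128 to 2514 CPM in TamCre. The part of the myeloid, Cd8a and double-positive levels was not tested. Myc was at 626 ± 28.2 CPM in TamCre and 463 ± 72.6 CPM in DeltaTamCre (log2 −0.43 ± 0.11, edgeR adjusted p = 0.128).

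In the ETP comparisons no member passed the test. With pI-pC, where 0.0416% of all genes passed, no member had an unadjusted p under 0.05 (5.56% of all genes did) and none was separated downward (6.46% of all genes were). Eif3l, an accessory eIF3 subunit, had the lowest p at 268, 294 and 470.1 CPM in MxCre and 276, 244 and 242 CPM in DeltaMxCre (log2 −0.43 ± 0.23, edgeR adjusted p = 0.931). MxCre ETP 3 was high for Eif3l, for the alternative tRNA carrier Eif2a (187 CPM against 83.9 and 67.1 CPM in the other MxCre libraries) and for the eIF2 beta subunit Eif2s2 (189 CPM against 89.4 and 94.2 CPM). The same library had the highest summed factor level of the table, 14128 CPM, and the lowest Malat1 share, 0.0777% of counts, and without it the members' median moved from −0.13 to −0.04. Of the 48 factors 39 were below 0, all 13 eIF3 genes among them. Cell type markers separated the same groups. The 11 stem and progenitor markers summed to 389.6 to 499 CPM in DeltaMxCre and 802 to 1104 CPM in MxCre, the 10 DN3 markers to 7829.8 to 8869.6 CPM against 3694 to 4858 CPM, and the 11 double-positive markers in the table to 2264 to 2574 CPM against 1249 to 1578 CPM. No marker of these lists was at 0 throughout either group. Their part in the factors' values was not tested.

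After the antibody in ETP cells, 0% of all genes passed the test, and DESeq2 called no member, with 0.223% of all genes called. At an unadjusted p under 0.05 there were 7 members, all lower, and 2.86% of all genes were lower at that p. Eif4g1 was at 467, 438 and 524 CPM with IgG and 325, 399 and 224 CPM with AntiNRR (log2 −0.59 ± 0.20, edgeR adjusted p = 0.736). Eif3b was at 269, 279 and 381 CPM against 180.2, 255 and 204 CPM (log2 −0.54 ± 0.19, edgeR adjusted p = 0.767), and Eif3a was at 410.0, 503 and 465 CPM against 353, 381 and 268 CPM (log2 −0.46 ± 0.17, edgeR adjusted p = 0.806). These 3 genes were also among the 8 called in DN3, and in each the groups were separated in ETP as well. In all, 8 of 52 members (15.4%) were separated downward, against 5.96% of all genes tested. Of the 48 factors 30 were below 0, with a median of −0.11 against 0.01. The 10 DN3 markers summed to 1271 to 3092 CPM in AntiNRR ETP and 4218 to 6033 CPM in IgG ETP, with no overlap and none at 0 throughout either group, and their part was not tested. Since the list includes Notch pathway genes, its sum does not read cell make-up alone here either. The median coefficient of variation over the factors was 18.5% in AntiNRR ETP and 11.4% in IgG ETP, beside 11.4% in AntiNRR DN3 and 8.96% in IgG DN3.

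In tamoxifen ETP cells 0% of all genes passed the test, no member had an unadjusted p under 0.05 (4.95% of all genes did), and DESeq2 called no member (0.0155% of all genes). Eif5a had the lowest p, at 621, 646, 616 and 599.9 CPM in TamCre and 397, 656, 502 and 409.8 CPM in DeltaTamCre (log2 −0.34 ± 0.16, edgeR adjusted p = 0.907). The second DeltaTamCre library was the highest of all 8 and the other 3 were below every control. Eif6, which keeps the large ribosomal subunit from joining too early, and Eif3k, an accessory eIF3 subunit, followed at log2 −0.28 ± 0.15 and −0.24 ± 0.13. Of 47 factors 38 were below 0, with a median of −0.12 against 0.03 for all genes. Marker levels varied within both groups. The 11 double-positive markers in the table summed to 692 to 5869 CPM in DeltaTamCre and 809 to 3053 CPM in TamCre, none at 0 throughout either group, and Rag1 ran from 97.3 to 2627 CPM in DeltaTamCre. Malat1 stood at log2 0.83 ± 0.28 (edgeR adjusted p = 0.907). Rn45s took 16.8% to 31.5% of counts in DeltaTamCre and 20.5% to 27.3% in TamCre. Input RNA was 1 ng per the labels, against 100 ng in tamoxifen DN3. Their part in the factors' values was not tested. In 1 of 51 members, 1.96%, the deleted libraries all lay below the controls, against 2.19% of all genes.

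The 6 comparisons share no library, so the factors' directions can be set side by side. The labels do not say whether ETP and DN3 libraries of the same treatment came from the same mice. The comparisons may therefore not be independent. In all 6, 21 of the 47 factors tested throughout were below 0 (44.7%), against 6.92% of the 11098 genes tested throughout. They include 9 eIF3 genes (Eif3a, Eif3b, Eif3c, Eif3d, Eif3g, Eif3i, Eif3k, Eif3l and Eif3m), 3 eIF2 subunits (Eif2s1, Eif2s2 and Eif2s3x), Eif4a1, Eif4b, Eif5a, Eif5b and Eif6. In the 3 DN3 comparisons 33 of 48 factors were below 0 (68.8%, all genes 21.6%), and in the 3 ETP comparisons 24 of 47 (51.1%, all genes 14.3%). None was above 0 in all 6, and in the 3 DN3 comparisons only Eif4e3 was. Genes of a complex vary together and are not independent, so these shares are descriptions, and most of the single fold changes behind them did not pass a test.

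**Figure D3:**
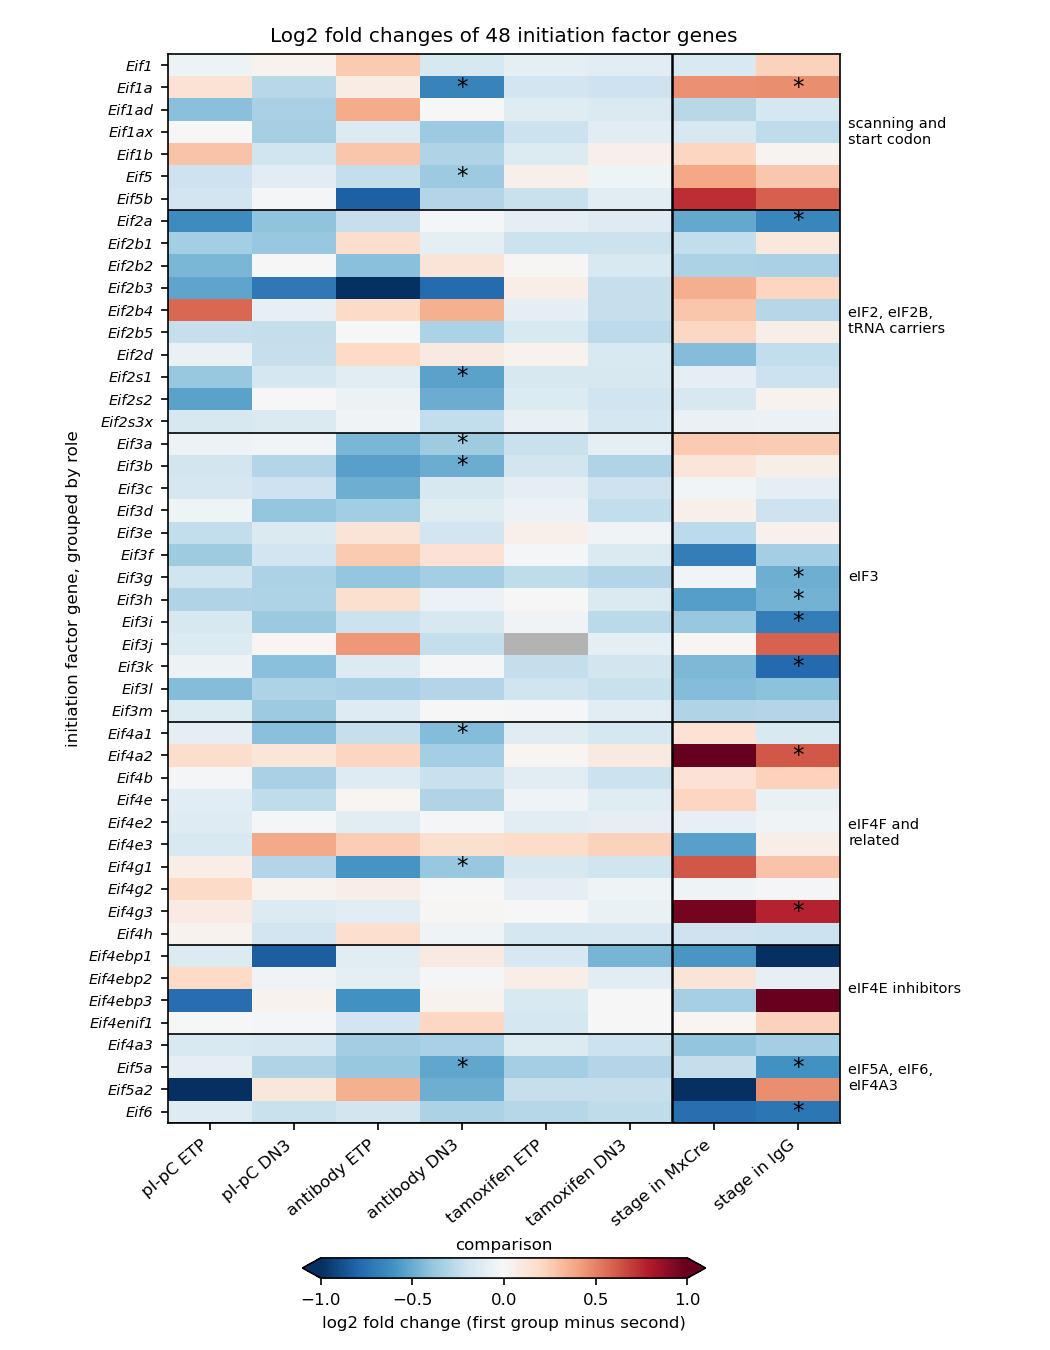
Each cell is the log2 fold change (first group minus second) of 1 initiation factor gene in 1 comparison, with rows grouped by role and colours held at −1 and 1. The right-hand columns are DN3 minus ETP in control libraries, a star marks an adjusted p under 0.05 and grey marks a gene not tested. Pale blue prevails in the eIF3 rows of the treated-control columns, and the stars stand in the antibody DN3 column and the IgG stage column.

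Whether these responses differed was tested within the pI-pC and antibody table, and no member passed in any of the 4 contrasts by edgeR or DESeq2. At an unadjusted p under 0.05 the contrasts held 0, 1, 2 and 1 members, in the order given here, and 5.52%, 5.46%, 12.5% and 6.4% of all genes. The pI-pC effect in DN3 against that in ETP had 0.00746% of genes called. The antibody effect in DN3 against that in ETP had 0% called, and Eif1a came closest, with log2 −0.67 in DN3 and 0.08 in ETP (difference −0.73 ± 0.28, unadjusted p = 0.0148, adjusted p = 0.901 by edgeR's quasi-likelihood test). Zmiz1 deletion against Notch1 block had 1.23% of genes called in DN3 and 0.082% in ETP. In DN3 the lowest p among members was that of Eif2c3 (difference 0.91 ± 0.28, edgeR adjusted p = 0.121), followed by Eif2s2, whose log2 fold change was −0.49 after the antibody and below 0.01 in size after pI-pC (edgeR adjusted p = 0.362). The fall of 8 factors in antibody DN3 was therefore not shown to differ from their change in antibody ETP or in pI-pC DN3; it was not set against pI-pC ETP or the tamoxifen comparisons. Those 8 were all below 0 in pI-pC DN3 (log2 −0.42 to −0.03) and in tamoxifen DN3 (−0.30 to −0.05).

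Between stages, DN3 cells of IgG mice differed from ETP cells in 12 members, 4 higher and 8 lower, against 7.12% of all genes that rose and 7.6% that fell. The higher ones were Eif4a2, the second eIF4A helicase, Eif4g3, the second large scaffold, Eif1a, and the Argonaute Eif2c3. The lower ones were the eIF3 subunits Eif3g, Eif3h, Eif3i and Eif3k, with Eif5a, Eif6, Eif2a and the Argonaute Eif2c2. Both shares, 7.69% and 15.4% of 52 members, are to be read against those of all genes. The main helicase Eif4a1 stood at log2 −0.15 ± 0.12 and did not pass (edgeR adjusted p = 0.448).

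Eif4a2 was at 103, 106 and 145 CPM in IgG ETP and 172, 187 and 184 CPM in IgG DN3 libraries (log2 0.62 ± 0.14, edgeR adjusted p = 0.00847). Eif4g3 was at 121, 135 and 70.7 CPM against 174, 184 and 198 CPM (log2 0.77 ± 0.19, edgeR adjusted p = 0.0152), and Eif1a at 77.3, 83.5 and 74.8 CPM against 95.8, 115 and 115 CPM (log2 0.47 ± 0.14, edgeR adjusted p = 0.0385). All 3 were higher in every DN3 library than in any ETP library. Eif2c3 rose most, from 20.3, 9.48 and 13.0 CPM to 32.7, 48.6 and 32.6 CPM (log2 1.41 ± 0.30, edgeR adjusted p = 0.00469).

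Among the lower members, Eif5a went from 731, 660.1 and 865 CPM in ETP to 525, 504 and 456 CPM in DN3 (log2 −0.60 ± 0.13, edgeR adjusted p = 0.00402). Eif3k went from 123, 94.0 and 146 CPM to 80.6, 67.2 and 64.5 CPM (log2 −0.77 ± 0.17, edgeR adjusted p = 0.00537), and Eif3i from 109, 115 and 139 CPM to 81.8, 67.9 and 75.2 CPM (log2 −0.69 ± 0.15, edgeR adjusted p = 0.00491). Eif3i contacts Eif3b and Eif3g, whereas Eif3k belongs to the accessory part of the complex. Eif6 was at 55.6, 62.8 and 50.4 CPM against 35.1, 33.2 and 34.0 CPM (log2 −0.72 ± 0.18, edgeR adjusted p = 0.0140). The remaining 4 lower calls had log2 fold changes from −0.65 (Eif2a) to −0.41 (Eif2c2) with edgeR adjusted p-values of 0.0148 to 0.0484. Of the 8 factors called after the antibody, Eif1a and Eif5a also changed with stage, in opposite directions.

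The MxCre libraries gave the same contrast in other mice, and there no member passed the test, where 2.99% of all genes did. All 12 members called in IgG had the same sign in MxCre, and 36 of 48 factors did (75%), as did 72.3% of all genes. Eif4a2 was at 87.7, 101 and 63.5 CPM in MxCre ETP and 193, 204 and 117 CPM in MxCre DN3 (log2 1.00 ± 0.27; adjusted p = 0.0880 by edgeR and 0.0147 by DESeq2). Eif4g1 was at 616, 416 and 394 CPM against 772, 680.5 and 783 CPM (log2 0.62 ± 0.22, edgeR adjusted p = 0.189), and Eif6 overlapped between the stages (log2 −0.75 ± 0.27, edgeR adjusted p = 0.197).

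Several library measures moved with stage. Rn45s took 8.92% to 13.8% of counts in IgG ETP and 2.75% to 3.74% in IgG DN3, and Malat1 0.432% to 0.788% against 1.06% to 1.39%. Per the labels the ETP RNA came from fewer cells. Fold change and exon length had a Spearman rho of 0.20 across 11440 genes in IgG and 0.14 across 11157 genes in MxCre, a description over genes that share libraries. The exon union of the 4 members higher in DN3 was 4168 bases for Eif1a, 5338 for Eif4a2, 11063 for Eif4g3 and 16571 for Eif2c3. That of the 8 lower members was 1612 for Eif3h, 1984 for Eif3g, 2377 for Eif5a, 2698 for Eif3k, 2702 for Eif6, 3702 for Eif3i, 6118 for Eif2a and 14031 for Eif2c2, so the lengths of both directions overlapped. The part of length in the stage calls was not tested. With the spread shared over all groups of the table, 2 members were called in IgG and 6 in MxCre. Without IgG DN3 2 or IgG DN3 3 the IgG count was 4 or 5.

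**Figure D4:**
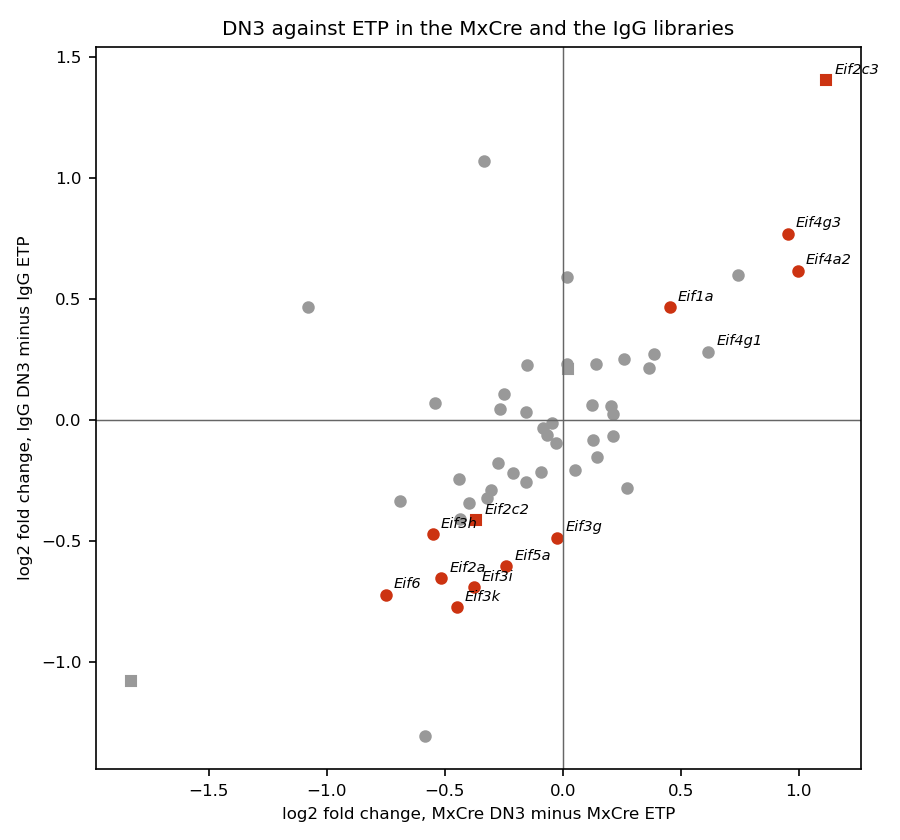
Each point is 1 member, with its log2 fold change (DN3 minus ETP) in MxCre libraries on the x axis and in IgG libraries on the y axis; squares are Argonautes. Red marks the 12 members called in IgG, all of which have the same sign on both axes. Eif4g1, named for MxCre, is also labelled.

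Among regulators of initiation, 5 of 24 rose from ETP to DN3 in IgG libraries and 1 fell. Of all genes tested there, 7.12% rose and 7.6% fell. Those that rose were the eIF2 kinases Eif2ak2 (log2 0.91 ± 0.17) and Eif2ak3 (0.80 ± 0.24), the S6 kinase Rps6kb1 (0.71 ± 0.18), the helicase Ddx3x (0.72 ± 0.13) and the cap-pathway repressor Gigyf2 (1.01 ± 0.15), and the eIF4E kinase Mknk2 fell (−0.53 ± 0.13), at edgeR adjusted p-values of 0.000335 to 0.0317. Of 12 elongation and termination factors, Eef1a1, Eef1b2, Eef1d and Eef1g fell (log2 −0.60 to −0.48, edgeR adjusted p = 0.00491 to 0.0337). None of the 36 genes passed in MxCre, where 2.99% of all genes did.

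Among the members with few or uncertain counts, Eif2s3y, the Y-linked copy of the eIF2 gamma subunit gene, had 0 counts in all 40 libraries, below a floor of 3 counts that equals 0.0321 to 0.309 CPM. Its X-linked partner Eif2s3x was tested throughout. Xist was at 717 to 3308 CPM in every library, and the listed Y-linked genes reached at most 11 counts. Eif4e1b, a germ-line relative of the cap-binding protein, reached at most 1.12 CPM. Eif3j could not be read in tamoxifen ETP, where 6 of 8 libraries had 0 counts, TamCre ETP 3 had 47 and DeltaTamCre ETP 4 had 1408. Its near-identical copy, listed as Gm9781 and named Eif3j2 in RefSeq, held 626 to 2600 counts in the same libraries, while in the table with pI-pC its range was 0 to 102. The sum of both was 60.1 to 88.7 CPM over the 8 libraries, with 36.9% of the 50-base stretches of Eif3j shared with other genes.

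Among the Argonautes, Eif2c1 and Eif2c2 had log2 fold changes of −0.09 to 0.22 in the 6 treated-control comparisons. Eif2c4, the scarcest, stayed at or under 8.55 CPM. Eif2c3, called after pI-pC in DN3, also had non-overlapping groups with higher levels in tamoxifen DN3 (log2 0.52 ± 0.16, edgeR adjusted p = 0.187) and stood at log2 −0.05 in antibody DN3. The 3 other comparisons gave log2 −0.19 to 0.12.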

How the data were processed

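RNA-seq of sorted mouse ETP and DN3 cells was analysed from 3 tables of estimated counts per gene, deposited by the authors with 1 column per library and no scaling between libraries; 0 per-sample columns were left unused. The submitters' processing notes name mm10 as the build, Cuffdiff 2.1.1 and Cufflinks, the aligners Bowtie2 2.1.0.0 and TopHat2 2.0.9, and FastQC 0.10.0; annotation, strand and the handling of multiply matching reads are not given in the sources used here. Per the labels' protocols, the 3 tables came from different kits, so no test joined them. The labels give 3 mice for a pI-pC group and 4 for a tamoxifen group; nothing says that the antibody libraries came from separate mice, so their p-values measure only the spread between these samples.

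Counts were rounded to whole numbers, put through filterByExpr (at least 10 counts, at least 15 in total) and TMM scaling, and compared by quasi-likelihood in edgeR 4.0.16 (robust, prior count 0.125; R 4.3.3), using only the groups compared and adjusting over all genes tested. Interactions were 1 contrast over 4 groups. Alternatives were DESeq2 1.42.0, its size factors, other filters, a shared spread, a replicate block, each library left out, and removal of Rn45s and Malat1, the last chosen after seeing the data. The test was checked on simulated counts. Named genes are the called members, at most 8 per direction, filled to 3 by lowest p; members discussed for level or role, Abce1, Eef1e1, Myc, Zmiz1 and Gm9781 were chosen after their values were seen. The members and lists were chosen with earlier results of these data known. Positions, exon lengths and shared 50-base stretches are from GENCODE M21, promoters from RefSeq; 49 members matched by symbol and 5 by an older symbol. No comparison had a correlation over 0.1 in every pair of same-numbered samples, so the replicate numbers were not treated as pairs. Some single pairs exceeded it: the correlations were 0.12, 0.03 and 0.25 for the stage contrast in MxCre. In tamoxifen ETP they were 0.14, 0.04, 0.13 and 0.16, so shared deviation is not excluded.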

Additional observations from a re-analysis of the deposited data

Results flagged for a closer look

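The summed level of the initiation factors in DeltaTamCre DN3 2 was 17192 CPM, and the next highest of the 4 libraries of that group was at 15147 CPM. The gap was 0.837 of the group's whole range, past Dixon's limit for 4 libraries. Such a gap arises by chance in about 1 of 20 groups, and 16 sets of values in the tamoxifen groups were examined.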

How the results depend on the processing

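Of 716 values for named genes 652 kept their side of the threshold, 55 lost it and 9 gained it. Counts of called members stayed within 1.5 times in 161 of 178 alternatives and medians within the spread in 173 of 178. For pI-pC DN3 the count of 1 became 2 with DESeq2 and with a shared spread, and 0 to 1 with 1 library left out. For antibody DN3 the count of 8 ran from 5 to 10 with 1 library left out and from 6 to 9 otherwise, and the median from −0.22 to −0.11. For tamoxifen DN3 DESeq2 gave 2. For the stage contrast in MxCre, DESeq2 gave 1, a shared spread 6, the replicate block 2 and leaving out 1 library 0 to 4 (4 without MxCre ETP 1), with medians of −0.162 to 0.0966, the last without MxCre ETP 3. For the stage contrast in IgG, a shared spread gave 2, the replicate block 10 and leaving out 1 library 4 to 13. The interaction medians ran over −0.202 to 0.0226 (pI-pC by stage, lowest without MxCre ETP 3), −0.0985 to 0.0340 (antibody by stage, highest without AntiNRR ETP 2), −0.0831 to 0.0757 (pI-pC against antibody in DN3, lowest without MxCre DN3 2) and −0.0722 to 0.131 (in ETP), with 0 members called throughout. The cause of these shifts was not tested. With the replicate block antibody DN3 gave 9 calls. Sex could not be added as a covariate, since no library had counts of Eif2s3y.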
